A study of Homo sapiens with 6 samples.

Results

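Chemokines and their receptors were followed in SU-DHL-8, an established human line of diffuse large B-cell lymphoma (DLBCL) labelled as lymph node, after treatment with GSK3685032, an inhibitor of the maintenance DNA methyltransferase DNMT1 (3 libraries), or with its solvent DMSO (3 libraries). The genes were chosen by symbol: every row of the deposited gene table named as a CC, CXC, XC or CX3C chemokine or receptor, as a numbered atypical receptor (ACKR), or as CCRL2. That gave 42 of 35974 genes, made up of 22 ligands, 13 signalling receptors, 4 atypical receptors and 3 noncoding or pseudogene rows. Both groups carry wild-type DNMT1 per the labels, the cells are 1 line, and neither the dose nor the time of exposure is stated in the labels. On replicates 2 and 3 of the inhibitor group, the treatment field reads GSK3685033 on the one and GSK3685034 on the other. All 3 were kept as 1 group, since the titles number them as 1 set and the series design names GSK3685032 alone.

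Chemokines are small secreted proteins, sorted into families by the spacing of their first cysteines, that bind receptors coupled to inhibitory G proteins and draw cells along a gradient. Atypical receptors bind chemokines without signalling through G proteins and so clear or hold them. In a germinal centre, CXCR4 and CXCR5 place B cells in the dark and light zones, and CCR7 draws them towards the T-cell zone. CXCL9, CXCL10 and CXCL11 are ligands of CXCR3, typically made after interferon, and CXCL8 attracts neutrophils.

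Levels are FPKM, the authors' count per gene length and library size, given as mean ± SD over 3 libraries. Differences were tested with edgeR's quasi-likelihood test on the deposited counts, with adjustment over all 20783 genes tested, and were called at an adjusted p of 0.05. Totals ran from 53846028 to 56795603 estimated counts per library with the inhibitor and from 57451935 to 75304441 with DMSO. About 4 of these counts stand for 1 read pair. DNMT1 itself measured 12.7 ± 0.774 FPKM with the inhibitor and 33.0 ± 0.690 FPKM with DMSO (log2 change -1.38, SE 0.055, edgeR adjusted p = 5.38e-08). Of all tested genes, 38.1% were called higher and 27.3% lower with the inhibitor, so a call by itself was common. The B-cell identity of the line was visible in both groups: 8 of 8 B-cell markers were in the table, and their summed level was 818 to 886 FPKM with the inhibitor and 883 to 903 FPKM with DMSO.

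With the inhibitor, CXCL11 made up most of the chemokine transcript level, whereas CCL5 did with DMSO. The dominant receptor CXCR4 fell to 73.0% of its DMSO level, and the atypical receptors CCRL2 and ACKR4 fell to 13.3% and 21.9% of theirs. Of the 42 genes, 19 had counts high enough to test. Of these, 9 were called higher (CXCL11, CXCL8, CCL3, CCL3L1, XCL1, CCL28, CCR1, CCR4 and ACKR4P1), where 38.1% of all tested genes were. Another 4 were called lower (CXCR4, CXCR5, CCRL2 and ACKR4), where 27.3% of all tested genes were. In 9 of the 19 every inhibitor library lay above every DMSO library, as in 41.7% of all tested genes, and in 5 every inhibitor library lay below, as in 30.0% of all tested genes. The median log2 change of the 19 was 0.42, against 0.14 over all tested genes. The remaining 6 tested genes were not called. Among the 19 were 6 genes with at most 12 counts over the DMSO libraries, which passed the filter through their inhibitor counts alone. Their calls as higher were thus nearly fixed in advance. These 6 genes also lift the median of the 19, so its excess over all tested genes is no sign of a shift across the family. The other 23 genes had too few counts to test.

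The promoter windows of 5 genes are shown, chosen by their expression results. Among them, CXCL11 was called and its neighbour CXCL10 was not. CXCL8 and CXCL3 are ligands of 1 gene cluster, of which CXCL8 rose and CXCL3 stayed near 0. CCRL2 is the called gene with the largest fall. Each window runs from 250 bases before to 50 bases after a RefSeq start (GRCh38.p14), 5′ to 3′ on the gene's strand. The window taken is that of the RefSeq start nearest to the deposited 5′ end. That start can lie well inside the deposited gene. For CXCL11 the deposited 5′ end is 76041415, whereas the window reaches only to 76036320. Which start the cells used was not tested. Capitals mark CpG dinucleotides, the sites DNMT1 maintains, and matches on either strand to the published consensus of 2 motifs, the IRF element bound by interferon regulatory factors and the kappaB site bound by NF-kappaB. In CXCL10 and CXCL3, a capital run joins a kappaB match and a CpG, and the 2 kappaB matches of CXCL3 overlap.
CXCL11, chr4:76036021-76036320, minus strand: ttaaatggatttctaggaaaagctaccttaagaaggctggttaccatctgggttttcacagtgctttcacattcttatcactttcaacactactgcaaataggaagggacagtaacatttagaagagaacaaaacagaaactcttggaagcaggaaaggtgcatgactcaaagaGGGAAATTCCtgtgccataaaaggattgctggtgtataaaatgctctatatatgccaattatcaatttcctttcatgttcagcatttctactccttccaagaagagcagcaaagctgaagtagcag
CXCL10, chr4:76023448-76023747, minus strand: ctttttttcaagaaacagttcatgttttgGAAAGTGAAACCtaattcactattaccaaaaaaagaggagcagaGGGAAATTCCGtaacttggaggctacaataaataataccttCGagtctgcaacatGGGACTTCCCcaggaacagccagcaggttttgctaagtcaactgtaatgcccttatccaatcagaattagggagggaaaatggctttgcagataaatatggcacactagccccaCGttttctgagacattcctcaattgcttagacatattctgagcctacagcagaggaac
CXCL8, chr4:73740319-73740618, plus strand: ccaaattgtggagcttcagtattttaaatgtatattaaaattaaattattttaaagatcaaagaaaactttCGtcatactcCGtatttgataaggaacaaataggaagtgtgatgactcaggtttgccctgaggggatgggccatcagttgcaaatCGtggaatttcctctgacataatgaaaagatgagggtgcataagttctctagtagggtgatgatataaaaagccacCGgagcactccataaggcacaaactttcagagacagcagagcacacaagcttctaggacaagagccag
CXCL3, chr4:74038640-74038939, minus strand: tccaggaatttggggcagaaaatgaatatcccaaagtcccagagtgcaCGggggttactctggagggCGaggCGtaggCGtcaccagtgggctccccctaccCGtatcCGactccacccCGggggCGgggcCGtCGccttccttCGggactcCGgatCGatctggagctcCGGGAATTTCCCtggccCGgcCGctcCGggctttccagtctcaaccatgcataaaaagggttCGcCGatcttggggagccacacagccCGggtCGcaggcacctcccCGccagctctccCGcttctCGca
CCRL2, chr3:46407009-46407308, plus strand: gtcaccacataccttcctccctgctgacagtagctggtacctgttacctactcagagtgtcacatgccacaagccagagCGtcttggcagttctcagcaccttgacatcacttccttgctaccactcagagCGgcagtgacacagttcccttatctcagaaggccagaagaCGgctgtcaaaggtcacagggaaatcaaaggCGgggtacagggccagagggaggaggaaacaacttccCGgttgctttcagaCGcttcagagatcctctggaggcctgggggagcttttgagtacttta

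CXCL11, a ligand of CXCR3 that attracts activated T cells (ENSG00000169248, chromosome 4, 76033682 to 76041415, minus strand), had the highest ligand level of the study. It measured 22.5, 23.8 and 25.4 FPKM in the inhibitor libraries, against 0, 0 and 0.0312 FPKM in the DMSO libraries. The groups were far apart, and the inhibitor libraries lay close together. CXCL11 had 7730 counts over the inhibitor libraries and 5 over the DMSO libraries, that is 1932 read pairs and about 1. The ratio of read pairs per library size was 2256, with an exact 95% counting interval of 404 to 89157 (edgeR adjusted p = 1.22e-08).

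CXCL10 and CXCL9, the neighbours of CXCL11 on the same strand and ligands of the same receptor, were not called with it. CXCL10 (76021118 to 76023497) is separated from it by 10184 bases. It measured 0.808, 1.09 and 0.931 FPKM in the inhibitor libraries, against 0.912, 0.883 and 0.299 FPKM in the DMSO libraries. The groups overlapped, and only DMSO replicate 3 lay low. The log2 change was 0.42 (95% interval -0.51 to 1.34, edgeR adjusted p = 0.402), with an upper bound of 2.54-fold. The lower bound for the read-pair ratio of CXCL11 was 404. That bound covers counting error only, whereas the edgeR interval of CXCL10 includes the spread between libraries. CXCL9 (76001275 to 76007509) had 0 counts in every inhibitor library and 4 counts, about 1 read pair, in DMSO replicate 1. ART3, which overlaps CXCL10 and CXCL11 on the opposite strand, averaged 0.0951 FPKM with the inhibitor and 0.0366 FPKM with DMSO. An unnamed gene inside CXCL11 on the same strand, ENSG00000225846, averaged 0.651 FPKM with the inhibitor and 0 with DMSO. It shares 315 bases with CXCL11, and reads of these could be counted for either.

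In the windows above, CXCL11 and CXCL10 share the same kappaB letters, GGGAAATTCC, which begin 76 bases before the start in CXCL11 and 177 bases before it in CXCL10. CXCL10 has another match, GGGACTTCCC, 122 bases before its start. The kappaB consensus is found in 5.91% of 35116 windows of this length and in 5 of the 27 windows matched to these genes (CCR3, CXCL10, CXCL11, CXCL2 and CXCL3). The IRF element is in the CXCL10 window as GAAAGTGAAACC, 221 bases before the start, and in 0.419% of all windows. Of the 27 windows, CXCL10 was the 1 with a match to this element. Only exact matches to the consensus of each motif were sought. An unmarked window, such as CXCL8 for kappaB or CXCL11 for the IRF element, may hold a variant site.

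CXCL8, the neutrophil attractant also known as interleukin 8 (ENSG00000169429, chromosome 4, 73740519 to 73743715, plus strand), was the other CXC ligand that rose. It measured 3.46, 3.20 and 2.80 FPKM in the inhibitor libraries, against 0.131, 0.0258 and 0.0589 FPKM in the DMSO libraries. Every inhibitor library was above every DMSO library. The log2 change was 5.32 (SE 0.42, edgeR adjusted p = 3.06e-06). CXCL3 and CXCL2, ligands of the same receptor CXCR2 from the same stretch of chromosome 4, stayed near the detection limit. CXCL3 had 11, 5 and 0 counts in the inhibitor libraries, against 0 in every DMSO library, and CXCL2 had 0, 10 and 4 counts with the inhibitor, against 0 in every DMSO library. CXCL13, the CXCR5 ligand at the far end of that stretch, had 12 counts over the inhibitor libraries and 28 over the DMSO libraries.

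**Figure D1:**
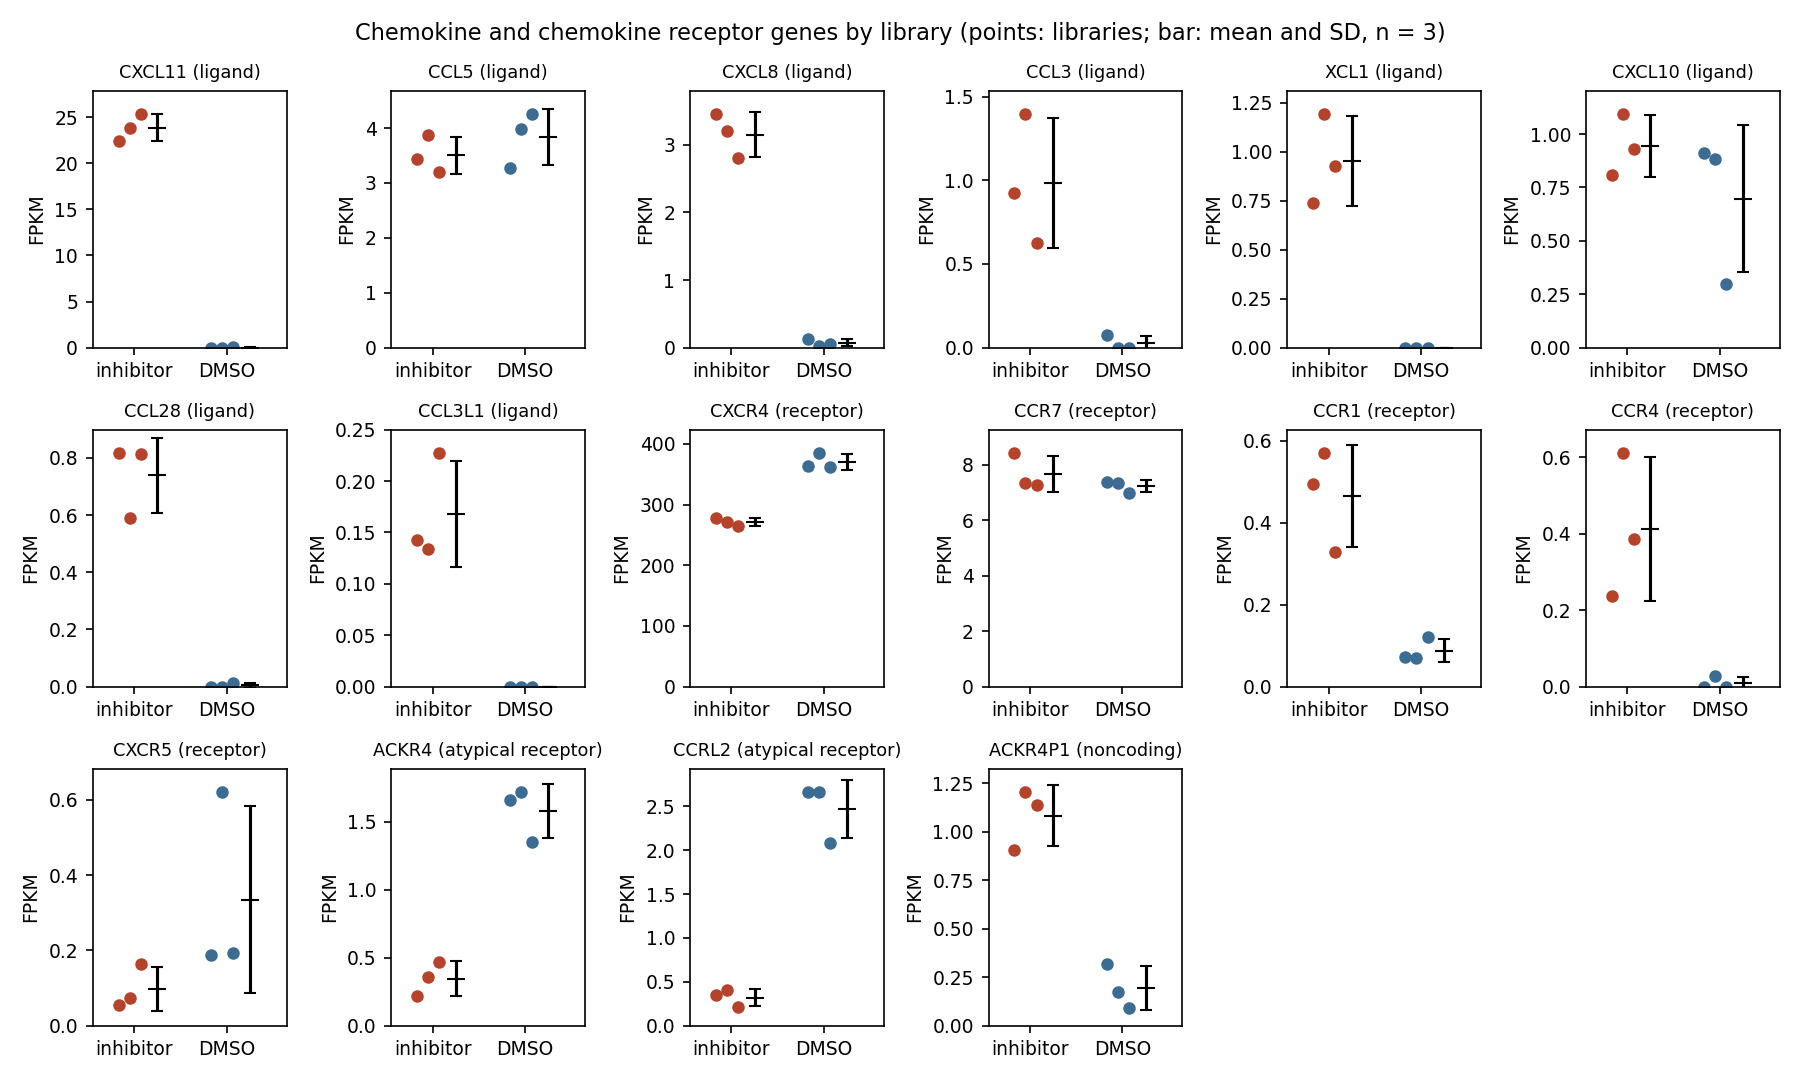
FPKM in each library for 16 of the 17 genes of the family that reached a mean of 0.5 FPKM in a group or were called; points are libraries, the bar beside them is the mean with its SD (n = 3), each panel has its own axis from 0, and red is the inhibitor and blue DMSO. CXCL11 lies between 22.5 and 25.4 FPKM with the inhibitor and at most at 0.0312 FPKM with DMSO, whereas CXCL10, CCL5 and CCR7 overlap between the groups.

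Among the CC ligands, CCL3 rose while CCL5 did not change detectably. CCL5, a T-cell attractant (ENSG00000271503, chromosome 17, 35871491 to 35880793, minus strand), was the most abundant ligand with DMSO. It measured 3.44, 3.87 and 3.21 FPKM in the inhibitor libraries, against 3.27, 3.98 and 4.26 FPKM in the DMSO libraries. The groups overlapped (log2 change -0.14, 95% interval -0.51 to 0.24, edgeR adjusted p = 0.503), and under upper-quartile scaling the value was 0.0368. Relative to the median of all tested genes it was -0.28 under either scaling. CCL3, an inflammatory ligand of CCR1 (ENSG00000277632, chromosome 17, 36088256 to 36090169, minus strand), measured 0.927, 1.40 and 0.627 FPKM in the inhibitor libraries, against 0.0766, 0 and 0 FPKM in the DMSO libraries. Inhibitor replicate 2 was the highest and replicate 3 the lowest of its group, and all 3 were above DMSO. It had 68 read pairs with the inhibitor and 2 with DMSO, a ratio of 39.7 per library size (exact 95% counting interval 10.6 to 334, edgeR adjusted p = 0.000711).

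Close copies of CCL3 and of its neighbour CCL4 followed at lower levels. CCL3L1, a near-identical copy of CCL3, measured 0.143, 0.134 and 0.227 FPKM in the inhibitor libraries and 0 in every DMSO library. That is at least 4.57-fold higher against a floor of 12 counts, or 3 read pairs, over the DMSO group (edgeR adjusted p = 0.000722). CCL4, another inflammatory ligand, had 23, 6 and 21 counts in the inhibitor libraries, against 6, 0 and 4 in the DMSO libraries. Its copy CCL4L2 had 10, 6 and 17 counts with the inhibitor and 0 in every DMSO library. Neither was tested. Their FPKM values did not overlap between the groups, as in 41.7% of all tested genes with the inhibitor above. For CCL4 the gap was marginal. Inhibitor replicate 2 was at 0.0465 FPKM and DMSO replicate 1 at 0.0456 FPKM, both from 6 counts. Reads of such copies can be shared, so their levels are uncertain one by one. CCL2, the monocyte attractant of the same chromosome, had 0, 8 and 6 counts with the inhibitor and 0 in every DMSO library.

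The ligands XCL1 and CCL28 also appeared with the inhibitor. XCL1, or lymphotactin, which attracts dendritic cells that carry XCR1 (ENSG00000143184, chromosome 1, 168576605 to 168582069, plus strand), measured 0.738, 1.19 and 0.926 FPKM in the inhibitor libraries and 0 in every DMSO library. This is at least 20.9-fold higher against the floor of 12 counts (edgeR adjusted p = 2.31e-05). RPL7AP21, a pseudogene that overlaps XCL1 on the opposite strand, averaged 0.264 FPKM with the inhibitor and 0 with DMSO. Reads of XCL2, a near-identical copy not analysed here, could be counted with XCL1. CCL28, a mucosal ligand of CCR10 and CCR3 (ENSG00000151882, chromosome 5, 43376645 to 43412391, minus strand), measured 0.818, 0.589 and 0.812 FPKM in the inhibitor libraries, against 0, 0 and 0.0123 FPKM in the DMSO libraries. It had 153 read pairs with the inhibitor and 1 with DMSO, a ratio of 179 per library size (exact 95% counting interval 31.6 to 7103, edgeR adjusted p = 6.92e-06). CXCL16, a membrane-bound ligand of CXCR6, measured 0.433, 0.474 and 0.369 FPKM in the inhibitor libraries, against 0.397, 0.327 and 0.301 FPKM in the DMSO libraries, and was not called (log2 change 0.29, 95% interval -0.32 to 0.90, edgeR adjusted p = 0.373).

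Summed over the 22 ligands, the level was 33.6, 36.2 and 36.2 FPKM in the inhibitor libraries, against 5.06, 5.23 and 5.13 FPKM in the DMSO libraries. CXCL11 made up 67.6% ± 2.25 of that sum with the inhibitor and 0.202% ± 0.351 with DMSO. CCL5 made up 9.92% ± 0.945 with the inhibitor and 74.6% ± 9.20 with DMSO, although its own level was not called as changed. Without CXCL11, the sum still averaged 11.5 ± 0.814 FPKM with the inhibitor, against 5.13 ± 0.0909 FPKM with DMSO. By level alone, 4 of the 42 genes were at least at 0.5 FPKM in every inhibitor library and under 0.1 FPKM in every DMSO library (CXCL11, XCL1, CCL28 and CCL3), where 2.65% of all genes in the table were.

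**Figure D2:**
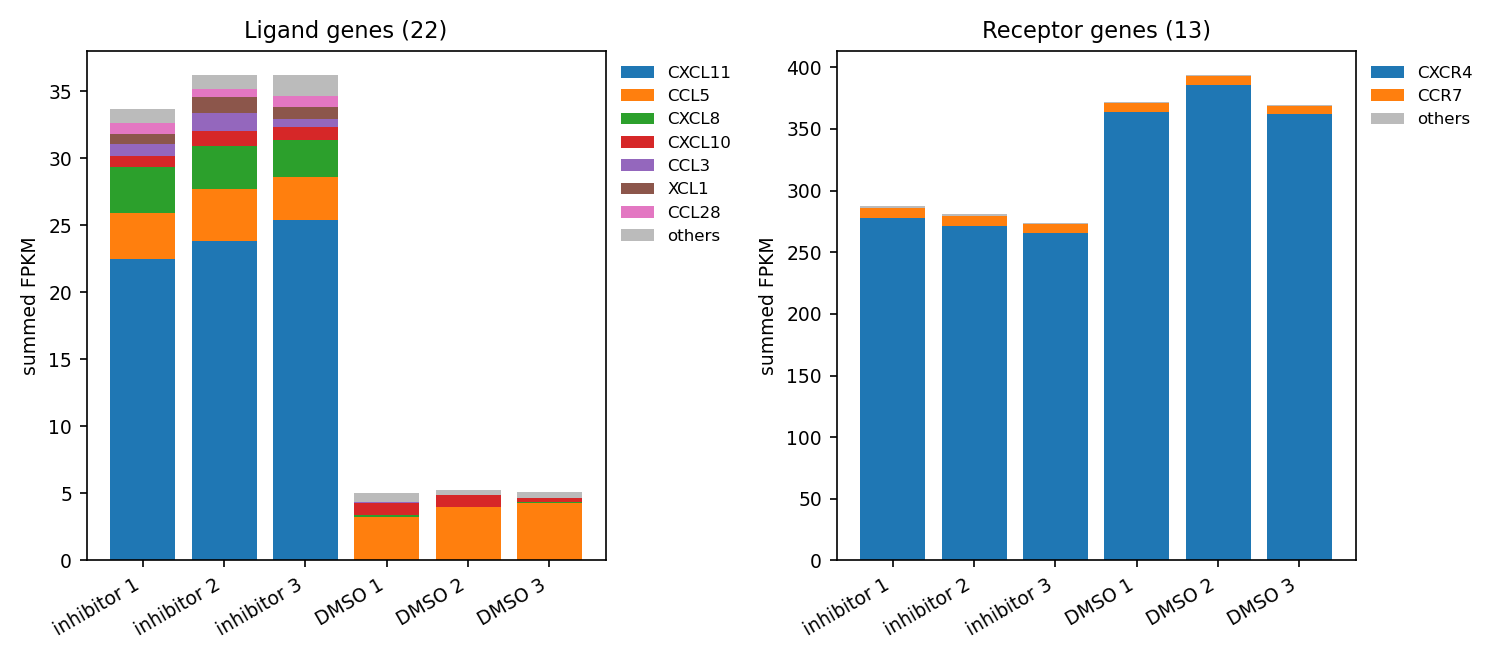
Summed FPKM of the 22 ligand genes (left) and the 13 signalling receptor genes (right) in each library, stacked by gene, with inhibitor libraries left of DMSO libraries. The ligand sum is 33.6 to 36.2 FPKM with the inhibitor, mostly CXCL11, and 5.06 to 5.23 FPKM with DMSO, mostly CCL5, while the receptor sum is nearly all CXCR4 in both groups.

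CXCR4, the receptor of CXCL12 that holds B cells in the germinal centre dark zone (ENSG00000121966, chromosome 2, 136114349 to 136119177, minus strand), dominated the receptors in both groups. It measured 278, 272 and 265 FPKM in the inhibitor libraries, against 364, 385 and 362 FPKM in the DMSO libraries. All inhibitor libraries were below all DMSO libraries. The log2 change was -0.45 (SE 0.045, edgeR adjusted p = 1.38e-05), to 73.0% of the DMSO level. It held 96.8% ± 0.138 of the summed receptor FPKM with the inhibitor and 97.9% ± 0.0328 with DMSO. Its ligand CXCL12 had 4 counts in inhibitor replicate 1 and 0 in the other libraries.

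The other receptors of B-cell positioning behaved differently from one another. CCR7 (ENSG00000126353, chromosome 17, 40553769 to 40565472, minus strand) measured 8.42, 7.33 and 7.25 FPKM in the inhibitor libraries, against 7.37, 7.33 and 6.98 FPKM in the DMSO libraries. The groups overlapped, and only inhibitor replicate 1 stood above the rest (log2 change 0.08, 95% interval -0.13 to 0.29, edgeR adjusted p = 0.472). Under upper-quartile scaling, CCR7 was called higher (log2 change 0.25, edgeR adjusted p = 0.0327). With upper-quartile scaling the median over all tested genes was 0.31, against 0.14 with TMM scaling. Relative to that median, CCR7 was at -0.06 under either scaling. CXCR5, the receptor of CXCL13 (ENSG00000160683, chromosome 11, 118883892 to 118897787, plus strand), was low in this line. It measured 0.0558, 0.0724 and 0.164 FPKM in the inhibitor libraries, against 0.188, 0.621 and 0.193 FPKM in the DMSO libraries. The groups did not overlap, but DMSO replicate 2 was far above the others. The log2 change was -1.77 (SE 0.58, edgeR adjusted p = 0.0219). The call was lost without DMSO replicate 2 (log2 change -0.95, edgeR adjusted p = 0.138), without inhibitor replicate 1 (edgeR adjusted p = 0.0868) and without inhibitor replicate 2 (edgeR adjusted p = 0.0765), and with limma on log2 FPKM. BCL9L, which overlaps CXCR5 on the opposite strand, averaged 1.39 FPKM with the inhibitor and 1.15 FPKM with DMSO.

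2 receptors of inflammatory and T-cell traffic rose at low levels. CCR1, a receptor of CCL3 and CCL5 (ENSG00000163823, chromosome 3, 46201711 to 46208313, minus strand), measured 0.495, 0.570 and 0.329 FPKM in the inhibitor libraries, against 0.0730, 0.0705 and 0.120 FPKM in the DMSO libraries. The groups did not overlap, and the log2 change was 2.38 (SE 0.39, edgeR adjusted p = 0.000426). CCR4, a receptor of skin-homing and helper T cells (ENSG00000183813, chromosome 3, 32951644 to 32956349, plus strand), measured 0.237, 0.612 and 0.387 FPKM in the inhibitor libraries, against 0, 0.0287 and 0 FPKM in the DMSO libraries. It had 57 read pairs with the inhibitor and 2 with DMSO, a ratio of 33.3 per library size (exact 95% counting interval 8.80 to 281, edgeR adjusted p = 0.000510). With inhibitor replicate 1, whose treatment field reads GSK3685032, as the only inhibitor library, the spread comes from the DMSO libraries alone. CCR4 was not called in that fit (edgeR adjusted p = 0.0614), with a fitted log2 change of 4.50 (SE 1.60), against 5.21 (SE 0.88) with all libraries. CCR10, a receptor of CCL27 and CCL28, averaged 0.371 ± 0.122 FPKM with the inhibitor and 0.300 ± 0.0261 FPKM with DMSO and was not called (log2 change 0.30, 95% interval -0.44 to 1.03, edgeR adjusted p = 0.449).

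Both atypical receptors with enough counts to test fell. Summed over all 4, the level was 0.749 ± 0.148 FPKM with the inhibitor and 4.08 ± 0.555 FPKM with DMSO. CCRL2, which binds chemerin and does not signal (ENSG00000121797, chromosome 3, 46407166 to 46409523, plus strand), measured 0.344, 0.401 and 0.214 FPKM in the inhibitor libraries, against 2.66, 2.66 and 2.09 FPKM in the DMSO libraries. Every inhibitor library was below every DMSO library. The log2 change was -2.91 (SE 0.26, edgeR adjusted p = 6.44e-06), to 13.3% of the DMSO level. ACKR4, which clears CCL19, CCL21 and CCL25 (ENSG00000129048, chromosome 3, 132597270 to 132618967, plus strand), measured 0.215, 0.357 and 0.467 FPKM in the inhibitor libraries, against 1.66, 1.72 and 1.35 FPKM in the DMSO libraries. These groups did not overlap either (log2 change -2.19, SE 0.28, edgeR adjusted p = 9.27e-05). ACAD11, which covers ACKR4 on the opposite strand, moved the other way in level, averaging 3.17 FPKM with the inhibitor and 1.73 FPKM with DMSO. ACKR3, a scavenger of CXCL12, had 3, 11 and 12 counts in the inhibitor libraries, against 8, 6 and 0 in the DMSO libraries. ACKR2, a scavenger of inflammatory CC ligands, had 0, 8 and 8 counts with the inhibitor and 0 in every DMSO library.

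ACKR4P1, a processed pseudogene of ACKR4 (ENSG00000225415, chromosome 6, 138822747 to 138823799, plus strand), was higher with the inhibitor, whereas its parent gene was lower. It measured 0.906, 1.20 and 1.14 FPKM in the inhibitor libraries, against 0.318, 0.172 and 0.0918 FPKM in the DMSO libraries. The groups did not overlap (log2 change 2.47, SE 0.45, edgeR adjusted p = 0.000903). Reads of ACKR4 and its pseudogene can be shared, and ACKR4P1 also lies inside ECT2L on the same strand, which averaged 0.0802 FPKM with the inhibitor and 0.0939 FPKM with DMSO.

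**Figure D3:**
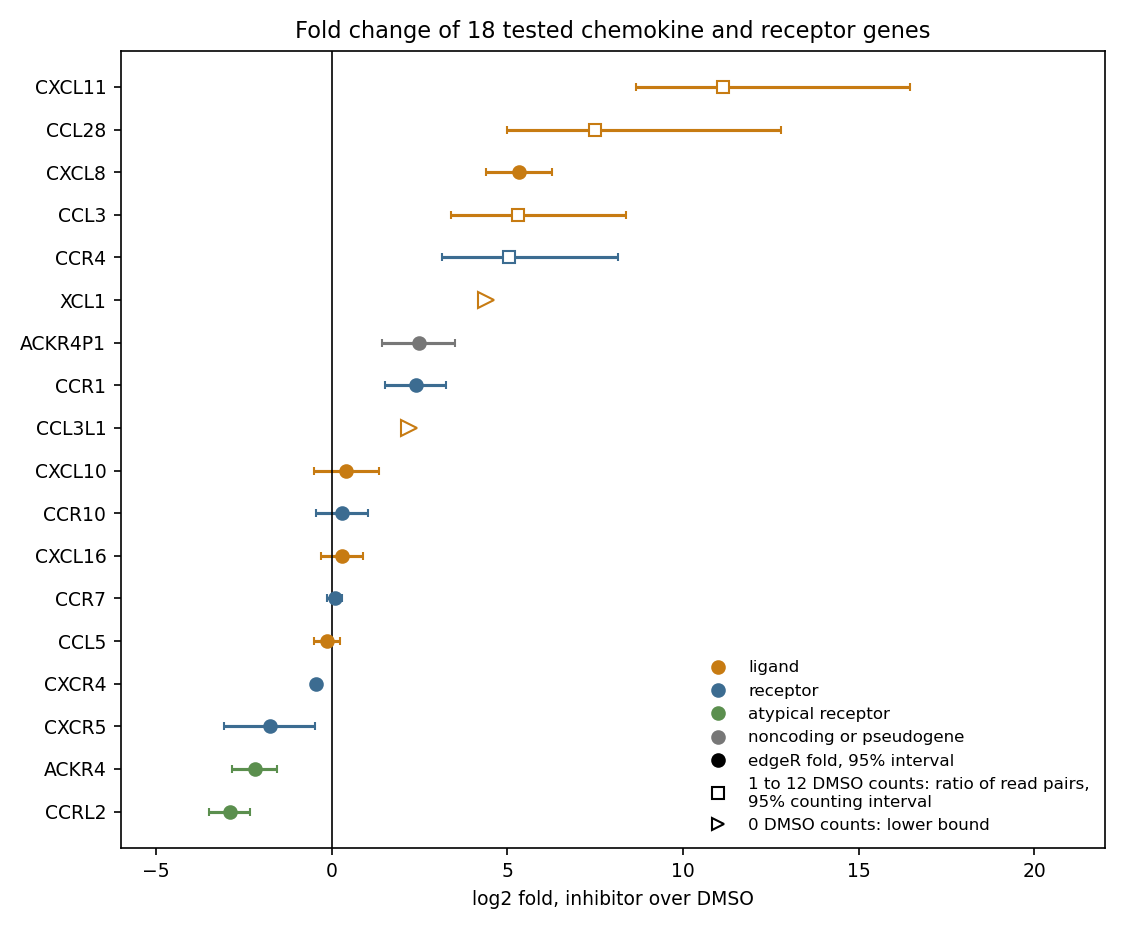
log2 fold, inhibitor over DMSO, of 18 tested genes of the family; filled circles are edgeR folds with their 95% interval, open squares are ratios of read pairs for genes with 1 to 12 DMSO counts with an exact 95% counting interval, and open triangles are lower bounds for genes with 0 DMSO counts. The ligands CXCL11 and CCL28 lie farthest to the right, and the atypical receptors CCRL2 and ACKR4 farthest to the left.

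The 23 genes that were not tested held 319 counts over the inhibitor libraries and 112 over the DMSO libraries, and none passed 23 counts in a library. Of these, 13 were ligands, 7 were receptors, 2 were atypical receptors and 1 was the pseudogene CCR12P. Their highest level in any library was 0.198 FPKM with the inhibitor and 0.191 FPKM with DMSO. Of these, CCL4L2 was called higher when the filter on low counts was dropped (edgeR adjusted p = 0.0111), with 33 counts over the inhibitor libraries and 0 over the DMSO libraries. CCR9, XCR1 and CXCL9 had 0 counts in every inhibitor library, and 12 of these 23 genes were at 0 in each of the DMSO libraries.

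Tested neighbours did not all have the same result. Only 3 genes were tested in each stretch below, where 38.1% of all tested genes were called higher and 27.3% lower. Genes not tested give no result either way. On chromosome 4, the deposited table has 7 CXC ligands between 73740519 and 77611834, with gaps such as 292873 bases from CXCL8 to CXCL3. Of these, CXCL8 and CXCL11 were called higher, CXCL10 was tested and not called and 4 were not tested. Family genes without a row in that table are not covered. On chromosome 17, between 34255274 and 36212878, 6 CC ligands lie together, of which CCL3 and CCL3L1 were called higher, CCL5 was not called and 3 were not tested. On chromosome 3, between 45886509 and 46409523, 8 receptor rows lie together, of which CCR1 was called higher, CCRL2 was called lower and 1 was not called, while 5 were not tested.

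Promoter windows were matched for 27 of the 42 genes by symbol, using the RefSeq start nearest to the deposited 5′ end. For genes such as CXCL11, CXCR5, XCR1, CCR3, CXCR6, CCL27 and CXCR4, that start lay well inside the deposited gene. The windows of these genes may not be at the start in use. For CXCR5 the deposited 5′ end is 118883892 and the window begins at 118893142. The CpG count of the 27 windows had a median of 4, against 14 over all 35116 windows. The 6 matched genes that were called higher had 0 to 6 CpG each: 0 in CXCL11, 3 each in CCL3, CCL28 and CCR1, 4 in CXCL8 and 6 in CCR4. CCL28 has another RefSeq start whose window holds 24. The windows richest in CpG among the ligands belonged to genes that stayed near 0, namely CXCL12 with 39, CXCL14 with 31, CXCL3 with 24 and CXCL2 with 22. Other untested ligands had few, such as CXCL9 with 0, CCL27 with 1 and CXCL13 with 2. Over the 16 windows of untested genes the median was 4.5, against 3 over the 6 called higher. Among genes called lower, CCRL2 had 6, CXCR5 had 9 and CXCR4 had 27. DNA methylation was not measured in these files.

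**Figure D4:**
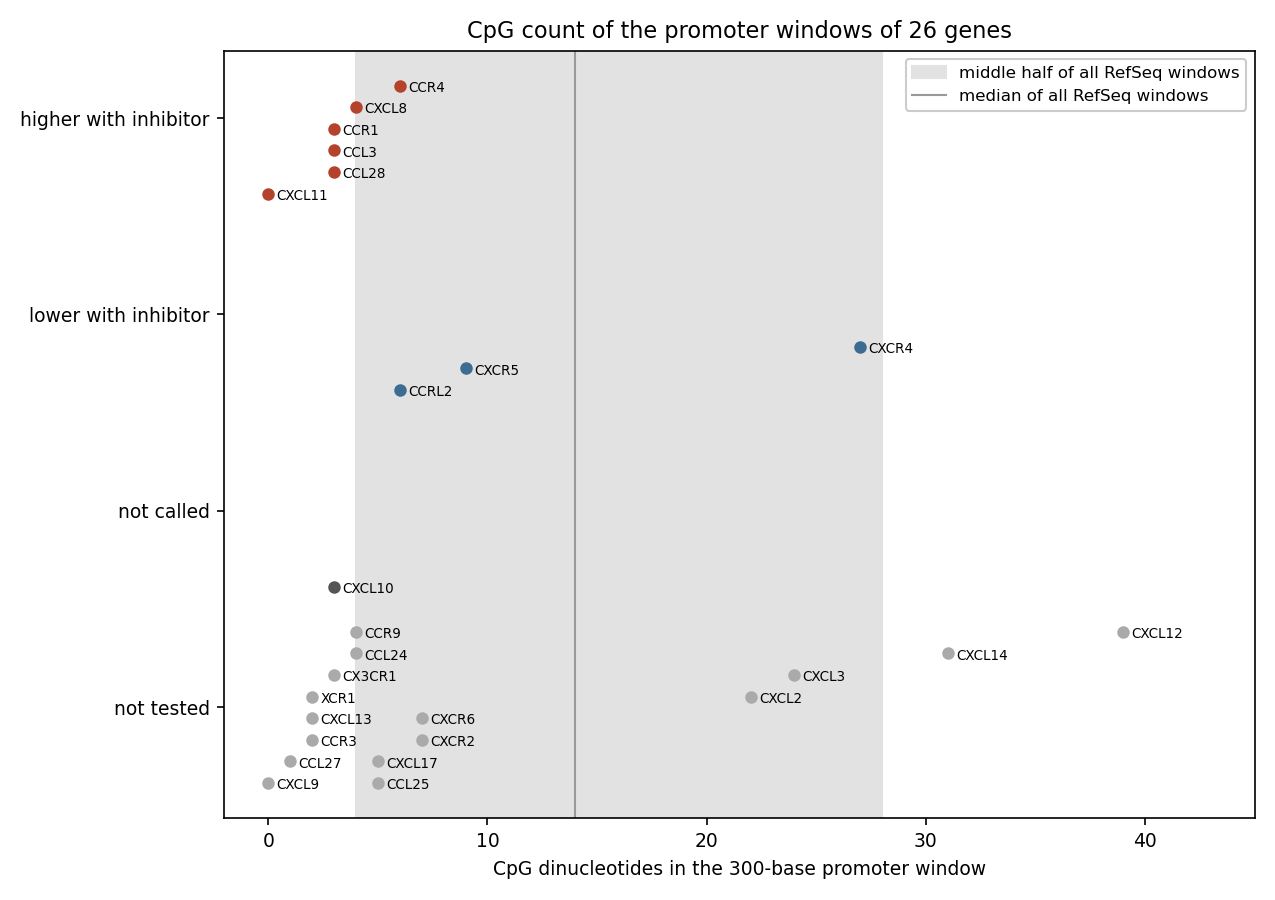
CpG dinucleotides in the 300-base promoter window (horizontal axis) of 26 genes with a matched window, grouped by the result of the expression test (vertical axis, points spread for legibility); the grey band and line are the range between quartiles and the median of all 35116 RefSeq windows. The 6 genes called higher have 0 to 6 CpG. The 16 genes with too few counts to test have 0 to 39, with a median of 4.5, and CXCL12, CXCL14, CXCL3 and CXCL2 are the richest of them.

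The next genes come from 3 lists of the pathway. Of 42 tested genes that act between a chemokine receptor and cell movement, 15 were higher and 17 lower, where 38.1% and 27.3% of all tested genes were (median log2 change -0.08, against 0.14 over all tested genes). Of the 15 higher genes, 2 had at most 12 counts over the DMSO libraries. PREX1, a Rac exchange factor activated by G protein subunits, averaged 2.50 ± 0.146 FPKM with the inhibitor and 0.694 ± 0.163 FPKM with DMSO (log2 change 1.83, SE 0.17, edgeR adjusted p = 7.83e-06). The adhesion GTPase RAP1B averaged 10.3 ± 0.403 FPKM with the inhibitor and 21.6 ± 1.18 FPKM with DMSO. WAS, which drives actin branching, averaged 7.67 ± 0.627 FPKM with the inhibitor and 13.5 ± 0.728 FPKM with DMSO. RHOH, a GTPase of blood cells, averaged 9.13 ± 0.437 FPKM with the inhibitor and 15.2 ± 1.06 FPKM with DMSO. The 3 falls had edgeR adjusted p of at most 6.99e-06.

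Of 26 tested genes for other positioning signals and chemokine partners, 13 were higher and 6 lower, where 38.1% and 27.3% of all tested genes were (median log2 change 0.38, against 0.14 over all tested genes). Of the 13 higher genes, 4 had at most 12 counts over the DMSO libraries, and these also lift the median. CD74, the invariant chain of MHC class II and a receptor of the chemokine-like factor MIF, averaged 350.1 ± 8.63 FPKM with the inhibitor and 150.3 ± 6.24 FPKM with DMSO (log2 change 1.21, SE 0.046, edgeR adjusted p = 3.88e-08). CKLF, a chemokine-like factor outside the family, averaged 5.09 ± 0.426 FPKM with the inhibitor and 10.2 ± 2.00 FPKM with DMSO (edgeR adjusted p = 0.000450). Its relative CMTM3 measured 1.11, 1.80 and 1.58 FPKM in the inhibitor libraries, against 0, 0.0158 and 0 FPKM in the DMSO libraries. It had 214 read pairs with the inhibitor and 1 with DMSO, a ratio of 249.9 per library size (exact 95% counting interval 44.4 to 9916), and passed the filter on low counts through its inhibitor counts alone. LTB, lymphotoxin beta, averaged 6.56 ± 1.80 FPKM with the inhibitor and 3.41 ± 0.596 FPKM with DMSO (edgeR adjusted p = 0.00341). With inhibitor replicate 1 as the only inhibitor library, and the spread from DMSO alone, the log2 change of LTB was 0.66 (SE 0.24, edgeR adjusted p = 0.0674), against 0.93 (SE 0.21) with all libraries.

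Of 43 tested regulators of chemokine genes, 12 were higher and 21 lower, where 38.1% and 27.3% of all tested genes were (median log2 change -0.15, against 0.14 over all tested genes). Of the 12 higher genes, 1 had at most 12 counts over the DMSO libraries. IRF7, a transcription factor of the interferon response, averaged 7.31 ± 0.758 FPKM with the inhibitor and 3.20 ± 0.225 FPKM with DMSO (log2 change 1.18, SE 0.12, edgeR adjusted p = 1.52e-05). The NF-kappaB subunit RELB averaged 14.9 ± 1.40 FPKM with the inhibitor and 38.5 ± 1.16 FPKM with DMSO (edgeR adjusted p = 2.75e-07). BCL6, the repressor that defines germinal centre B cells, averaged 2.59 ± 0.354 FPKM with the inhibitor and 6.75 ± 0.531 FPKM with DMSO (edgeR adjusted p = 3.46e-06). IRF2, which opposes IRF1 at interferon response elements, averaged 13.8 ± 0.608 FPKM with the inhibitor and 30.9 ± 0.879 FPKM with DMSO (edgeR adjusted p = 5.85e-08).

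Markers of other cell types were low in both groups, and some were called higher with the inhibitor: 2 T-cell, 2 natural killer cell, 1 myeloid, 3 fibroblast and 3 epithelial markers. These are 11 of the 17 such markers tested, where 38.1% of all tested genes were called higher, and 8 of the 11 had at most 12 counts over the DMSO libraries and so passed the filter through the inhibitor libraries alone. The summed level of 5 natural killer cell markers was 1.32 to 1.84 FPKM with the inhibitor and 0.357 to 0.519 FPKM with DMSO, with KLRD1 and NCR1 at 0 in every DMSO library. The 4 T-cell markers in the table, of 7 listed, summed to 5.09 to 7.07 FPKM with the inhibitor and 2.07 to 2.91 FPKM with DMSO. Most of this was TRAC, while CD3E and CD8A were at 0 in every DMSO library. The 7 myeloid markers, of 8 listed, summed to 0.910 to 1.15 FPKM with the inhibitor and 0.587 to 0.823 FPKM with DMSO, with ITGAM, FCGR3A and MPO at 0 in every DMSO library. The 4 epithelial markers, of 5 listed, summed to 2.74 to 4.15 FPKM with the inhibitor and at most 0.0144 FPKM with DMSO, with EPCAM, CDH1 and KRT18 at 0 in every DMSO library. The 5 fibroblast markers, of 6 listed, summed to 0.682 to 0.841 FPKM with the inhibitor and 0.0988 to 0.132 FPKM with DMSO, and the 3 endothelial markers, of 5 listed, to 0.0367 to 0.0609 FPKM with the inhibitor and 0 with DMSO. The labels name 1 cell line and no other cell type. Where these marker transcripts came from, and whether that source adds to the ligand levels, was not tested. In bulk libraries such as these, a change in how many cells express a gene and a change per cell cannot be told apart.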

How the data were processed

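Oligo(dT)-selected RNA of 6 libraries was sequenced in pairs after a strand-marking (dUTP) preparation, per the labels' protocols, and libraries were grouped by title. For each gene the authors' deposited table gives FPKM and an estimated count per library, per the file headers. The submitters' processing notes name, without roles, HISAT2 2.2.1, StringTie 2.1.6, Cutadapt 1.9, edgeR and DESeq2, and the mouse build mm10. The gene IDs are human, and all 42 genes overlap their GRCh38 position in GENCODE release 29, so coordinates were read as GRCh38. No source used here says whether strand was used in counting, so overlapping genes on opposite strands cannot be told apart.

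The deposited counts are whole numbers that peak at multiples of 4 (on average 1320 genes per library had 4, against 726 with 3 and 475 with 5), so 4 counts were taken as 1 read pair. They were fitted with edgeR 4.0.16 in R 4.3.3 (filterByExpr, TMM factors 0.981 to 1.02, two-sided quasi-likelihood test, Benjamini-Hochberg adjustment over 20783 genes, threshold 0.05). Genes without DMSO counts were set against 12 counts over the group, and those with 1 to 12 were given as ratios of read pairs with an exact conditional interval. Intervals and floors cover counting error only. Genes named by rule were those with a mean of at least 0.5 FPKM in a group or called, up to 4 called genes per list of at least 1 FPKM with the largest change in log2(FPKM + 0.5), and DNMT1. Other family members named as neighbours, copies or partners were chosen after their values were seen. The family and the lists were chosen with earlier results of these data known. Since no label ties the libraries to separate cultures, p-values measure library-to-library spread that may be technical alone. No pair within a group was identical, and each pair differed by 3.30 to 6.81 times the variance of sampling read pairs. Alternatives were DESeq2 1.42.0, limma 3.58.1 on log2 FPKM, other scalings and filters, counts divided by 4, a replicate block and leaving out each library. Some genes are counted in totals but not reported here by name. The tests were checked on simulated counts.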

Additional observations from a re-analysis of the deposited data

How the results depend on the processing

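Of the 17 genes of the family that met the naming rule and were tested, 12 kept their direction and their side of the threshold under each of the 17 alternatives that could test them, and 5 did not, among them CXCR5, CCR4, CCR7 and CCL5. The call of CXCR5 ended with limma on log2 FPKM at pseudocounts of 0.1, 0.5 and 1 (adjusted p = 0.0684, 0.0941 and 0.107) and with inhibitor replicate 1 as the only inhibitor library (0.0668), where the spread comes from DMSO alone and the log2 change was -2.55 (SE 0.94), against -1.77 (SE 0.58) with all libraries. Upper-quartile scaling, which gave a median over all genes of 0.31 (0.14 with TMM scaling), moved CCL5 with it to a log2 change of 0.0368. The sign turned for CCR7 on leaving out single libraries (-0.0094 without inhibitor replicate 1, up to 0.125). Testing genes of at least 1 FPKM in at least 3 libraries left 7 genes of the family, of which 2 were higher and 3 lower, where 38.9% and 35.6% of the genes so tested were. The same filter gave 7 higher positioning genes and 4826 higher genes in all, because fewer genes were tested. A level of at least 1 FPKM with the inhibitor left 1 gene switched on. Leaving out each library in turn gave 9 to 11 higher and 3 to 4 lower genes of the family, where 34.7% to 36.4% and 23.8% to 25.1% of the genes tested were, 4 to 5 switched on, 13 to 16 higher and 15 to 18 lower signalling genes, 12 to 13 and 5 to 6 positioning genes, 10 to 13 and 19 to 20 regulators, and 7481 to 8065 and 5263 to 5434 genes in all. Upper-quartile scaling gave 9312 higher and 4344 lower genes in all. Counts divided by 4, near the number of read pairs, left 18 genes of the family to test. Of these, 8 were higher and 5 lower, where 40.7% and 32.7% of the 16200 genes so tested were. CCL3L1 was not tested in that fit. Fold changes of low genes shrank with limma, where the pseudocount sets them: CXCL11 ran from 4.62 to 7.77 on the log2 scale and CXCL8 from 1.95 to 4.28.

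Replicate numbers are shared between groups, but deviations of same-numbered libraries correlated at only 0.000490 to 0.0211, so the numbers were not taken as pairs. With the replicate block, 9 genes of the family were higher and 5 lower (35.8% and 25.8% of all genes tested), against 4 lower without it.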
